A study of Mus musculus with 12 samples.

Results

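The proteasome genes are described here across 4 populations sorted from mouse bone marrow as endothelial, by the gates given below. They were chosen by symbol, as every row of the deposited table that starts with Psm, then a letter from a to g and a number, and 49 of 17362 genes matched. Of these, 48 encode proteasome subunits, activators, an inhibitor or assembly factors. Psmc3ip matches the pattern by name only, as it encodes a recombination factor. The rule itself uses no measured value, though it was set with earlier results of these data known. By role, 7 genes encode the alpha ring of the core particle, 4 the structural beta subunits, 3 the constitutive catalytic beta subunits (Psmb5, Psmb6, Psmb7) and 3 their inducible counterparts (Psmb8, Psmb9, Psmb10). A further 6 encode the ATPases and 11 the other subunits of the 19S cap, 3 the chaperones of its base, 6 activators or an inhibitor, 4 the assembly chaperones of the core, and 1, Psma8, an alpha subunit of the testis. All 49 passed the filter on low reads.

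The proteasome is the barrel-shaped protease that degrades proteins tagged with ubiquitin. Its 20S core is built of alpha and beta rings, with the proteolytic sites inside, and the 19S cap recognises, unfolds and feeds in the substrates. In haematopoietic cells, and in other cells exposed to interferon gamma, the inducible subunits Psmb8, Psmb9 and Psmb10 replace Psmb5, Psmb6 and Psmb7 in newly made cores. The resulting immunoproteasome supplies many of the peptides that MHC class I molecules present.

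RNA was sequenced from untreated B6 mice, with 6 mice used for biological triplicates of 4 populations, 12 libraries in all. Cells came from crushed tibia, femur and iliac bone, and every gate asked for CD31+, Sca1+ and CD45- cells. CD200-high capillaries were gated in addition as CD200Hi and EMCN-, type H vessels as EMCN+, and arterial cells as CD200-. The sinusoidal label adds no further marker. The listed reads ran from 7.33 to 21.63 M (M, 1e6 reads) per library. How mice were combined into triplicates is not given in the sources used here, so p-values measure the spread between these samples.

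The populations differed in more than vessel type. The 10 pan-endothelial markers (Pecam1, Cdh5, Kdr and others) summed to 0.1805% to 0.3713% of reads in the CD200-high libraries and 0.5828% to 0.6006% in type H. They made up 0.1152% to 0.1542% of arterial reads and 0.02388% to 0.0255% in the libraries labelled sinusoidal. No marker of that list was at 0 reads in all 3 libraries of a population, but Cdh5, the cadherin of endothelial junctions, stood at -0.47 ± 0.95 log2 CPM (log2 of counts per 1e6 reads, mean ± SD, n = 3) in the libraries labelled sinusoidal, against 7.76 ± 0.65 for CD200-high, 8.38 ± 0.15 for type H and 7.29 ± 0.22 for arterial. Erg of the same list went the other way. Its mean was highest in the libraries labelled sinusoidal, at 4.39 log2 CPM, with arterial at 2.89, type H at 3.70 and CD200-high at 2.07. The other 9 markers had their lowest mean in the libraries labelled sinusoidal, though Pecam1 still stood at 6.22 there. As a sum, endothelial marker RNA was thus scarce in the sinusoidal group, which is called by its label. Its 10 B and plasma cell markers summed to 1.194% to 1.357% of reads, against 0.1818% to 0.4634% for arterial, and at most 0.03495% in a CD200-high and 0.02146% in a type H library. Its 8 megakaryocyte and platelet markers summed to 0.3017% to 0.4145%, against at most 0.1595% in any other library. The 10 neutrophil markers were highest in arterial (2.152% to 3.265%, and at most 1.13% elsewhere), and so were the 10 macrophage markers (0.7665% to 1.136%, at most 0.3429% elsewhere) and the 9 erythroid markers (1.039% to 2.197%, at most 0.6678% elsewhere). The 12 stromal and bone markers took 9.359% to 12.1% of CD200-high reads, and at most 2.084% of any other library. Single genes differed from these sums. The highest mean lay in arterial for Adipoq, Lepr, Cxcl12 and Kitl of the stromal list and for Ms4a1 of the B cell list. For Mrc1 and Vcam1 of the macrophage list and Epor of the erythroid list, it lay in type H. Adipoq averaged -2.03 log2 CPM in CD200-high and 8.87 in arterial. The 18 cell cycle genes summed to 0.02711% to 0.06552% in CD200-high, with type H at 0.0387% to 0.07121%, arterial at 0.1654% to 0.2364% and the libraries labelled sinusoidal at 0.2907% to 0.3337%. The part of these cells in the proteasome values below was not tested, and in bulk RNA fewer cells of a type and less RNA per cell cannot be told apart.

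Together the 49 genes took 0.353%, 0.3996% and 0.3796% of reads in replicates 1, 2 and 3 of CD200-high. Their mean share was 0.377% ± 0.0234 there, with type H at 0.475% ± 0.00832, arterial at 0.491% ± 0.0317 and the libraries labelled sinusoidal at 0.648% ± 0.0297 (SD, n = 3 each). All libraries labelled sinusoidal lay above all others, and all CD200-high libraries lay below all others. This share is of all listed reads, without the authors' scaling, so it moves with every other abundant gene. The 3 inducible catalytic genes alone took 0.0230% ± 0.00957 in CD200-high on average, with type H at 0.0354%, arterial at 0.0407% and the libraries labelled sinusoidal at 0.0631%. Their 3 constitutive counterparts took 0.0409%, 0.0350%, 0.0403% and 0.0549% in the same order.

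Sequence just upstream of the catalytic genes is shown because it is where motifs of the interferon and stress pathways were searched. Windows of 250 bases before the annotated start came from RefSeq (GRCm38.p6), which gave one for 41 of the 49 members and 27025 genes in all. GAAA, any 2 bases and GAAA again stood for the interferon-stimulated response element, TTCNNNGAA for the gamma-activated site, and TGACNNNGC for the antioxidant response element bound by the Nfe2l1 and Nfe2l2 family. Both strands were read and no matches overlapped. Capitals mark a match, and only bases free of annotated exon are printed, except for the 29 bases around the Psmb8 match.
Psmb8 site, inducible (chr17:34198088-34198116, + strand, 107 to 79 bases before the start): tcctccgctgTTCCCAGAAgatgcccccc
Psmb10, inducible (chr8:105938445-105938642, - strand, 250 to 53 bases before the start): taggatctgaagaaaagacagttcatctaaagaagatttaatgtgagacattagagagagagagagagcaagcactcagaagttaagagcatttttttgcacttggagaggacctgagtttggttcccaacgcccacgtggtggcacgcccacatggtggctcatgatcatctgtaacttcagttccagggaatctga
Psmb5, constitutive (chr14:54618023-54618245, - strand, 250 to 28 bases before the start): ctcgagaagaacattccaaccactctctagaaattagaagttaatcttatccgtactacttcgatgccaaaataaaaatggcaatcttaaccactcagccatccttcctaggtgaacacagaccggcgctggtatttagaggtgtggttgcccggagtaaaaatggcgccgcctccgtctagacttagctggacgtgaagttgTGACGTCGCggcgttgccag
Psmb6, constitutive (chr11:70525107-70525356, + strand, 250 to 1 bases before the start): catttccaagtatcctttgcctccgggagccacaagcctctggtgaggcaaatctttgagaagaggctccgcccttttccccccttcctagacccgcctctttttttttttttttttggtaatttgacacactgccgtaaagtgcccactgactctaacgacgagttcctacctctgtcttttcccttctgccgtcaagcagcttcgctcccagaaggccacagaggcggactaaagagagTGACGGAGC

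The constitutive genes Psmb5 and Psmb6 each held the antioxidant response letters within 47 bases of the start, at 47 to 39 and 9 to 1 bases before it. Their fellow constitutive gene Psmb7 had no window and was not searched. Psmb8 held the gamma-activated letters at 97 to 89 bases before its start, and the windows of Psmb9 and Psmb10 held none of the 3 motifs. The antioxidant letters occurred in 5 of 41 members (12.2%) against 11.5% of all genes, the others being Psmc6, Psmd9 and Psmd12. The gamma-activated letters occurred in 2 of 41 members, Psmb8 and Psmg1 (4.88%), against 8.13% of all genes. The interferon-stimulated letters occurred in 3 of 41 members, Psmb3, Psmd4 and Psmd9 (7.32%), against 3.46% of all genes. A match describes these letters only, and a window without one says nothing of sites elsewhere.

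The inducible catalytic genes Psmb8 and Psmb9 were higher in the libraries labelled sinusoidal than in CD200-high and type H. Psmb8 encodes the inducible chymotrypsin-like subunit. Replicates 1, 2 and 3 of CD200-high measured 6.37, 7.06 and 7.55 log2 CPM, and those of type H 7.54, 7.28 and 7.58. It measured 7.97, 7.65 and 7.86 in arterial libraries and 8.35, 8.52 and 8.29 in those labelled sinusoidal. The last group lay above every other library, and the CD200-high libraries spread most, overlapping type H. The means were 6.99 ± 0.59, 7.47 ± 0.16, 7.83 ± 0.17 and 8.39 ± 0.12 in that order. CD200-high lay below the libraries labelled sinusoidal by a log2 difference of -1.40 ± 0.24 (SE; adjusted p = 0.00133, limma with Benjamini-Hochberg adjustment over all 17086 genes kept), and type H by -0.92 ± 0.24 (adjusted p = 0.0146). The first call held in all 20 alternative fits; the second was lost without replicate 2 of the libraries labelled sinusoidal (adjusted p = 0.0553). The difference of CD200-high from arterial, -0.84 ± 0.24 (adjusted p = 0.044), was lost in 13 of the 20. Its adjusted p reached 0.133 without arterial replicate 1, was 0.102 without CD200-high replicate 1, and was 0.0556 with replicate number as a block; the fits that kept the call were those without CD200-high replicate 3 or type H replicate 2 and 5 others. Against type H the difference was -0.48 ± 0.24 (adjusted p = 0.245), and it passed only without CD200-high replicate 3 among the fits that left out 1 library (-0.75, adjusted p = 0.0378). Arterial minus sinusoidal did not pass in the main fit. It did with voom weights (-0.57, adjusted p = 0.0463) and in a fit of only those populations (-0.56, adjusted p = 0.0337).

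Psmb9, the inducible caspase-like subunit, measured 5.73, 6.18 and 5.75 log2 CPM in CD200-high and 5.80, 6.23 and 5.48 in type H. It measured 6.40, 6.60 and 6.33 in arterial libraries and 6.85, 7.15 and 6.96 in those labelled sinusoidal. CD200-high and type H overlapped, and every arterial library lay above them and below the libraries labelled sinusoidal. The log2 difference from the libraries labelled sinusoidal was -1.10 ± 0.23 for CD200-high (adjusted p = 0.00362) and -1.15 ± 0.23 for type H (adjusted p = 0.00248), and both calls held in all 20 alternative fits. The differences of CD200-high and type H from arterial, -0.56 (adjusted p = 0.132) and -0.61 (adjusted p = 0.0794), did not pass; the second did with replicate number as a block (adjusted p = 0.0438) and without type H replicate 2 (-0.80, adjusted p = 0.0298). Psmb9 shares 212 bases of exon (15.7% of its exon length) with Tap1, a subunit of the peptide transporter, on the opposite strand. The 2 starts lie 211 bases apart on chromosome 17, and as the strand counted is not stated, reads from the shared bases cannot be told apart.

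Psmb10, the inducible trypsin-like subunit, differed mostly within CD200-high. Replicates 1, 2 and 3 of CD200-high measured 4.34, 5.62 and 6.80 log2 CPM, a wider spread than in any other population. Type H measured 7.05, 6.78 and 7.01, arterial 6.30, 6.46 and 6.32 and the libraries labelled sinusoidal 6.78, 6.54 and 6.79. CD200-high replicate 3 lay within the range of the other populations and replicates 1 and 2 lay below all 9 of their libraries. CD200-high minus type H was -1.36 ± 0.45 (adjusted p = 0.0697) and CD200-high minus sinusoidal -1.12 ± 0.45 (adjusted p = 0.0833), so neither passed. Without CD200-high replicate 3, Psmb10 passed as lower in CD200-high than in type H (-1.97, adjusted p = 0.00238), arterial (-1.38, adjusted p = 0.0166) and the libraries labelled sinusoidal (-1.72, adjusted p = 0.00272). With all libraries and voom weights it passed against type H (adjusted p = 0.014) and the libraries labelled sinusoidal (adjusted p = 0.0202), and with total-read scaling against the latter (adjusted p = 0.0344). The pan-endothelial share of the same CD200-high libraries was 0.1805% in the library with the lowest Psmb10 and 0.3713% in the one with the highest; its part in the Psmb10 values was not tested.

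Of the constitutive counterparts, Psmb5 and Psmb6 had their lowest means in type H and arterial respectively, and Psmb7 in CD200-high like Psmb8. Psmb5, the constitutive chymotrypsin-like subunit, measured 7.35, 7.58 and 7.44 log2 CPM in CD200-high and 7.08, 6.47 and 6.92 in type H. Arterial libraries measured 7.31, 7.36 and 7.18 and those labelled sinusoidal 7.49, 7.49 and 7.54. All 3 type H libraries lay below all others, and CD200-high overlapped the libraries labelled sinusoidal. CD200-high was above type H by 0.63 ± 0.17 (adjusted p = 0.0281) and type H below the libraries labelled sinusoidal, at a difference of -0.68 ± 0.17 (adjusted p = 0.00949). The second call held in all 20 alternative fits. The first was lost without CD200-high replicate 2 (adjusted p = 0.0817), type H replicate 2 (0.0754) or type H replicate 3 (0.0527), in a fit of only those populations (adjusted p = 0.144), and with total-read scaling. CD200-high minus sinusoidal was -0.05 (adjusted p = 0.854).

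Psmb6, the constitutive caspase-like subunit, passed in no comparison. Its mean was 7.91 ± 0.25 log2 CPM in CD200-high, with type H at 7.58 ± 0.07, arterial at 7.56 ± 0.08 and the libraries labelled sinusoidal at 7.97 ± 0.05. Psmb7, the constitutive trypsin-like subunit, measured 5.47, 5.12 and 5.05 in CD200-high and 6.06, 6.13 and 5.66 in the libraries labelled sinusoidal, with type H (5.62 ± 0.13) and arterial (5.62 ± 0.24) between them. CD200-high lay below the libraries labelled sinusoidal, at a difference of -0.74 ± 0.24 (adjusted p = 0.036). That call was lost without CD200-high replicate 2 or 3 or sinusoidal replicate 1 or 2, with adjusted p up to 0.126 for the last, and in 3 of the 8 other alternatives. Psmb7 shares 405 bases of exon (34.9%) with Nek6 on the opposite strand.

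**Figure D1:**
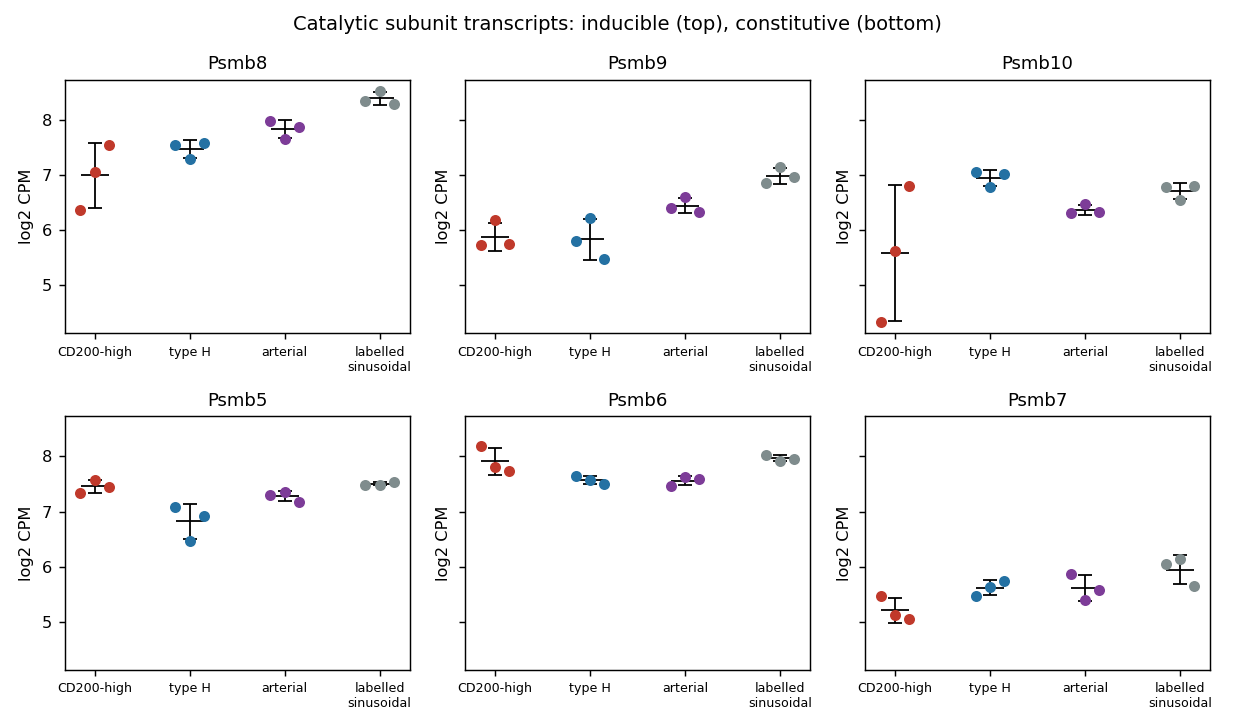
Transcript level of the 6 catalytic subunit genes in log2 CPM (vertical axis) for the 4 populations (horizontal axis); dots are single libraries, the line is the mean and the bar 1 SD (n = 3). Psmb8 and Psmb9 (top row) are highest in the libraries labelled sinusoidal, at 8.39 and 6.99 on average, Psmb10 runs from 4.34 to 6.80 within CD200-high, and Psmb5 (bottom row) is lowest in type H at 6.82.

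Within each library, the ratio of an inducible gene to its constitutive counterpart does not depend on the scaling between libraries. The log2 ratio of Psmb8 to Psmb5 was -0.98, -0.53 and 0.10 in the CD200-high libraries, and 0.46, 0.81 and 0.66 in type H. It was 0.67, 0.29 and 0.68 in arterial libraries and 0.86, 1.03 and 0.75 in those labelled sinusoidal. All 3 CD200-high libraries lay below the other 9. An exact permutation test of any difference among the 4 populations gave p = 0.00292, or 0.00877 adjusted over the 3 ratios tested. The log2 ratio of Psmb9 to Psmb6 was -2.03 ± 0.42 in CD200-high and -1.75 ± 0.35 in type H, against -1.11 ± 0.12 in arterial libraries and -0.98 ± 0.20 in those labelled sinusoidal (exact permutation test, p = 0.00844, adjusted p = 0.0127). Every CD200-high and type H library lay below every library of the other populations. The log2 ratio of Psmb10 to Psmb7 was -1.12, 0.50 and 1.75 in CD200-high, and averaged 1.33 ± 0.22 for type H, 0.75 ± 0.32 for arterial and 0.75 ± 0.37 for the libraries labelled sinusoidal (exact permutation test, p = 0.572, also 0.572 adjusted). Its CD200-high libraries spanned all the others. Without CD200-high replicate 3 this last ratio passed (adjusted p = 0.0199), and without CD200-high replicate 1 its CD200-high mean lay above that of the libraries labelled sinusoidal. Pairs of populations were not tested, since an exact permutation test of 3 libraries against 3 cannot go below 0.10.

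Per kb of exon, the inducible gene made up part of each pair as follows. Psmb8 took 21.9%, 27.7% and 37.2% of the summed Psmb8 and Psmb5 level in the CD200-high libraries, with type H at 46.3% ± 3.0, arterial at 44.6% ± 3.8 and the libraries labelled sinusoidal at 50.4% ± 2.39. Psmb9 took 12.9% ± 3.19, 15.1% ± 3.19, 21.5% ± 1.39 and 23.1% ± 2.46 of its sum with Psmb6, in the same order of populations. Psmb10 took 28.9%, 55.6% and 74.8% of its sum with Psmb7 in the CD200-high libraries, and 68.9% ± 3.22, 59.7% ± 5.33 and 59.8% ± 6.03 in the others. These are shares of transcript level; protein and assembled cores were not measured.

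**Figure D2:**
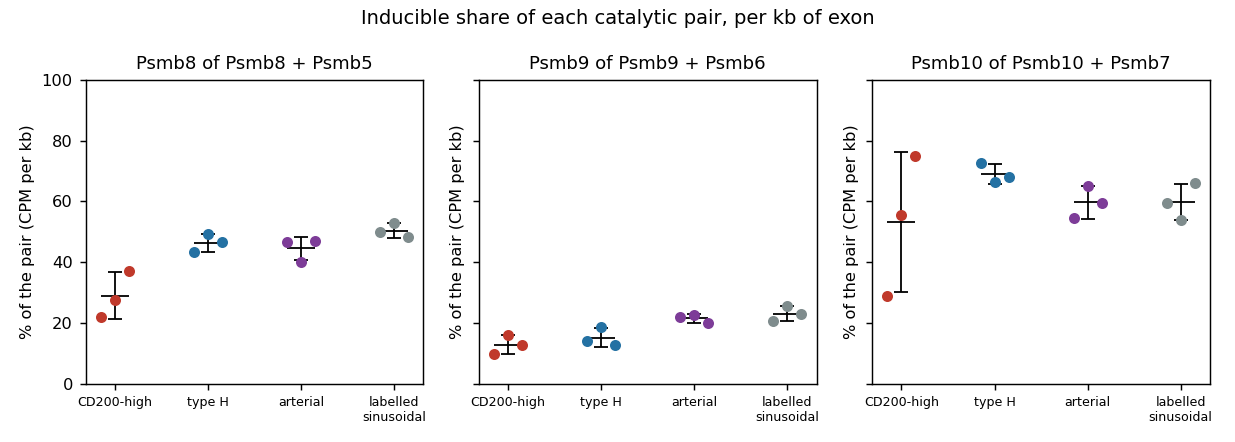
Share of the inducible gene in the summed level of each catalytic pair, in percent of counts per kb of exon (vertical axis), by population; dots are single libraries, the line is the mean and the bar 1 SD (n = 3). The Psmb8 share is 29.0% on average in CD200-high and 44.6% to 50.4% in the other populations, and the Psmb10 share runs from 28.9% to 74.8% within CD200-high.

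Per kb of exon, using union exon lengths of GENCODE M21, the constitutive gene Psmb6 was the most abundant of the 49 members, at 274 counts per 1e6 reads and kb as a mean over the 4 populations. Psmb2 (230) and Psmb3 (213), both structural subunits, and the activator subunit Psme1 (196) came next, followed by Psmb5 (175) and Psma7 (174). Psmb8 ranked 8 at 134, Psmb10 ranked 18 at 70.8, Psmb9 ranked 22 at 61.5 and Psmb7 ranked 31 at 42.8. The lowest were the activator gene Psme4 at 2.48 and Psma8 at 1.76.

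Across the whole set, CD200-high against the libraries labelled sinusoidal gave the most calls. Of the 49 members, 16 were lower in CD200-high (32.7%) and 0 higher, beside 14.6% and 14.1% of all 17086 genes tested. The median difference of the members was -0.512 log2, with 44 of 49 below 0, against -0.223 for all genes. Of the 16, the alpha ring gave Psma2, Psma5 and Psma6, the beta rings Psmb2, Psmb3, Psmb7, Psmb8 and Psmb9, the 19S cap and its chaperones Psmc1, Psmd6, Psmd8, Psmd10, Psmd11 and Psmd14, and the other roles Psme3 and Psmg2. The inducible catalytic genes had a median difference of -1.12 and the other 46 members one of -0.492. In all 20 alternative fits, 9 of the 16 calls held: Psma2, Psma5, Psma6, Psmb8, Psmb9, Psmd8, Psmd14, Psme3 and Psmg2. The count was 9 without sinusoidal replicate 1 and 9 without sinusoidal replicate 2. Scaling by total reads gave 32 calls and median-of-ratios scaling 9. Shares of all genes were counted in the main fit only, so counts of alternative fits here and below have none beside them. With replicate number as a block, Psmc1 (adjusted p = 0.0597) and Psmd6 (adjusted p = 0.0626) no longer passed. Only 2 of these members are inducible catalytic subunits. The pan-endothelial, stromal and bone, B cell, megakaryocyte and cell cycle shares given above also differed between these populations. The part of these shares was not tested.

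**Figure D3:**
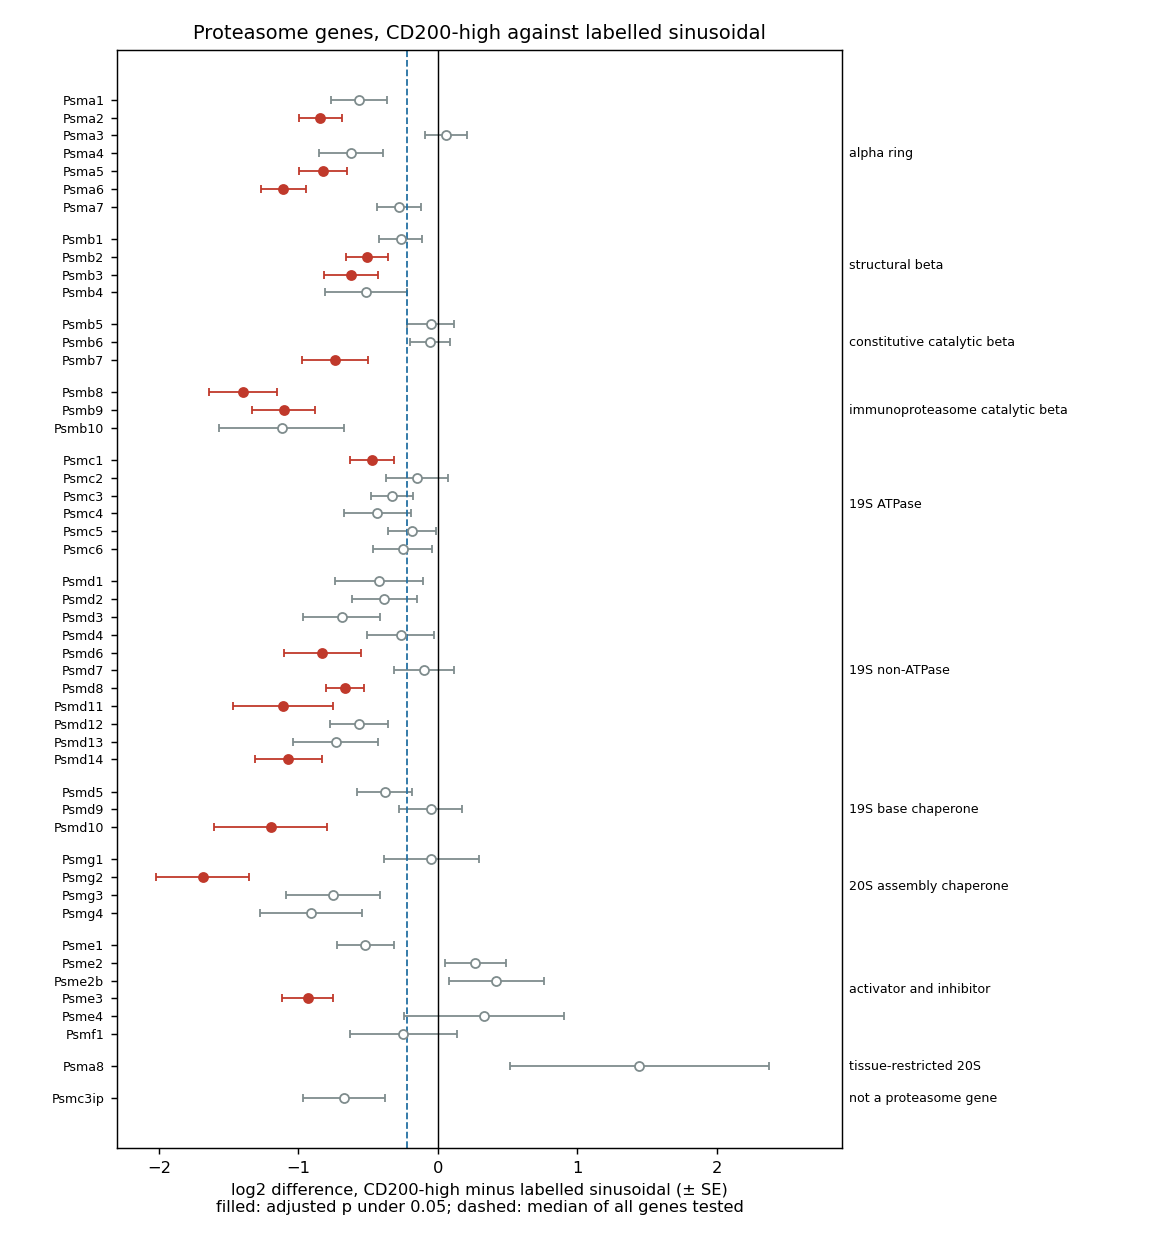
Log2 difference of each proteasome gene (rows, grouped by role) between CD200-high and the libraries labelled sinusoidal, with its SE; filled points passed limma at an adjusted p under 0.05, and the dashed line is the median of all genes tested, -0.223. Of the 49 genes, 44 lie below 0 and 16 passed, all lower in CD200-high.

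Type H against the libraries labelled sinusoidal gave 9 members lower in type H (18.4%) and 1 higher, beside 14.6% and 13.9% of all genes. The 9 were Psma2, Psma6, Psma8, Psmb5, Psmb8, Psmb9, Psmd5, Psmd14 and Psme3, and the 1 was Psmd3. The count of higher members was 0 without type H replicate 2 and 0 without sinusoidal replicate 2. The count of lower members was 16 with voom weights, 20 with scaling by total reads and 17 with quantile normalization. Total-read scaling also moved the median of all genes here from -0.205 to -0.38. The member median was -0.27 and that of all genes -0.205. In all 20 alternative fits, 7 of the 10 calls held.

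CD200-high against type H gave 2 members higher in CD200-high, Psma8 and Psmb5, and 5 lower (10.2%), Psmb2, Psmc1, Psmd3, Psme1 and Psmg2, beside 6.66% and 6.35% of all genes. The Psma8 and Psmd3 calls held in all 20 alternative fits. The count of 5 fell to 1 without type H replicate 1, to 3 without type H replicate 2 or 3, and to 1 when only these populations were fitted. The count of 2 fell to 1 without CD200-high replicate 2 or type H replicate 2 or 3, and 1 was left with scaling by total reads.

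CD200-high against arterial gave 5 members lower in CD200-high (10.2%), Psma6, Psmb8, Psmd14, Psme3 and Psmg2, and 0 higher, beside 8.15% and 4.75% of all genes. None of these 5 calls held in all 20 alternative fits. The count was 0 without arterial replicate 1, 1 without arterial replicate 2, 2 without arterial replicate 3 or CD200-high replicate 2, and 3 without any 1 of the libraries labelled sinusoidal. With replicate number as a block it was 3, and Psmd14 (adjusted p = 0.0585) was lost along with Psmb8.

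Type H against arterial gave 1 member higher in type H, Psmd3, and 2 lower, Psma8 and Psme3, beside 7.96% and 12.7% of all genes (20.7% in either direction). All 3 of these calls held in the 20 alternative fits. Arterial against the libraries labelled sinusoidal gave 1 member, Psmc3, lower in arterial (2.04%), beside 2.14% of all genes, and 0 higher, beside 8.09%. Psmc3, an ATPase of the cap, stood at 6.53 ± 0.10 and 7.08 ± 0.08 log2 CPM (difference -0.55 ± 0.15, adjusted p = 0.0385). The call was lost without arterial replicate 2 or 3 or any 1 of the libraries labelled sinusoidal, with adjusted p up to 0.147 without sinusoidal replicate 2. The member median was -0.326 here, with 44 of 49 below 0, against -0.0163 for all genes.

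Of the 49 members, 22 passed in at least 1 comparison and 27 in none. The like share of all genes was not counted, so the 22 have no background beside them. The 27 include Psma1, Psma3, Psma4 and Psma7 of the alpha ring, Psmb1 and Psmb4 of the beta rings and 4 of the 6 cap ATPases. The highest of the 4 population means fell in the libraries labelled sinusoidal for 34 members, in type H for 10, in arterial for 3 and in CD200-high for 2, where 33.6%, 25.4%, 20.4% and 20.6% of all genes had theirs. The lowest mean fell in CD200-high for 30 members, beside 29.5% of all genes. The range between the highest and the lowest mean was smallest for Psmc6, a cap ATPase, at 0.254 log2, and its median over 48 members was 0.629.

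Among the alpha ring genes, which build the gate of the core, Psma6 followed the order of the mean read shares of the whole set. In those shares type H and arterial libraries overlapped. Psma6 measured 6.40, 6.09 and 6.20 log2 CPM in CD200-high and 6.51, 6.63 and 6.54 in type H. Arterial libraries measured 6.93, 6.65 and 6.95 and those labelled sinusoidal 7.39, 7.42 and 7.21. The 4 populations did not overlap in this gene. CD200-high minus sinusoidal was -1.11 ± 0.16 (adjusted p = 0.000387), type H minus sinusoidal -0.78 ± 0.16 (adjusted p = 0.00353) and CD200-high minus arterial -0.61 ± 0.16 (adjusted p = 0.0289). The last was lost without CD200-high replicate 2 or 3 or arterial replicate 1 or 3, with adjusted p up to 0.094, with voom weights (0.0598) and in a fit of only those populations (0.11). Psma2 averaged 7.03 ± 0.15 in CD200-high, with type H at 7.25 ± 0.05, arterial at 7.39 ± 0.23 and the libraries labelled sinusoidal at 7.87 ± 0.09, and Psma5 averaged 5.86 ± 0.04, 6.24 ± 0.17, 6.20 ± 0.10 and 6.68 ± 0.09. Both were lower in CD200-high than in the libraries labelled sinusoidal, at -0.84 ± 0.15 (adjusted p = 0.00166) and -0.82 ± 0.17 (adjusted p = 0.00391).

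Psma8, which replaces an alpha subunit in the testis, had few reads. The CD200-high libraries held 37, 105 and 34 reads, the arterial libraries 48, 58 and 70 and those labelled sinusoidal 24, 53 and 44, while all 3 type H libraries held 0. Type H did not overlap any other population. With a floor of 3 reads per type H library, a mean of 0.172 CPM, CD200-high held at least 30.6-fold higher Psma8, arterial at least 27.0-fold and the libraries labelled sinusoidal at least 10.9-fold. The limma adjusted p values were 0.000276, 0.000284 and 0.000466. Floors cover counting error only.

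Among the other subunits of the 19S cap, Psmd3 set type H apart. It measured 4.99, 5.44 and 6.13 log2 CPM in CD200-high and 7.04, 7.44 and 7.24 in type H. It measured 6.17, 5.71 and 5.76 in arterial libraries and 6.35, 6.02 and 6.26 in those labelled sinusoidal. All type H libraries lay above the other 9. Type H was higher than CD200-high (CD200-high minus type H, -1.72 ± 0.28, adjusted p = 0.00161), than arterial (1.36 ± 0.28, adjusted p = 0.00506) and than the libraries labelled sinusoidal (1.03 ± 0.28, adjusted p = 0.0153). The last call was lost without type H replicate 2 (adjusted p = 0.0512) or sinusoidal replicate 2 (adjusted p = 0.0599). Psmd3 was the 1 member higher in type H than in each of the other 3 populations, which 2.89% of all genes were.

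Psmd14, the cap's deubiquitinase, measured 4.95, 5.32 and 5.30 log2 CPM in CD200-high and 5.55, 5.40 and 4.88 in type H. It measured 5.99, 6.17 and 5.83 in arterial libraries and 6.43, 6.28 and 6.07 in those labelled sinusoidal. CD200-high and type H overlapped, and both lay below all arterial and all sinusoidal libraries. CD200-high minus sinusoidal was -1.07 ± 0.24 (adjusted p = 0.00645) and type H minus sinusoidal -0.98 ± 0.24 (adjusted p = 0.00972), while CD200-high minus arterial, -0.81 ± 0.24 (adjusted p = 0.0481), was lost in 13 of 20 alternative fits, with adjusted p up to 0.141 without arterial replicate 2. Psmd8, a further subunit of the cap, averaged 7.28 ± 0.22, 7.73 ± 0.04, 7.58 ± 0.10 and 7.94 ± 0.03 in CD200-high, type H, arterial and the libraries labelled sinusoidal (CD200-high minus sinusoidal -0.66 ± 0.14, adjusted p = 0.00402).

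The activators bind the ends of the core in place of the cap. Psme3, the nuclear activator PA28 gamma, measured 7.25, 7.47 and 6.997 log2 CPM in CD200-high and 7.06, 6.98 and 6.67 in type H. It measured 8.13, 8.24 and 7.78 in arterial libraries and 8.05, 8.35 and 8.11 in those labelled sinusoidal. CD200-high and type H overlapped, and all 6 of their libraries lay below all 6 of the others. Type H was lower than the libraries labelled sinusoidal by a difference of -1.27 ± 0.18 (adjusted p = 0.00028) and than arterial by -1.15 ± 0.18 (adjusted p = 0.00107), and CD200-high was lower than the libraries labelled sinusoidal by -0.93 ± 0.18 (adjusted p = 0.00265). These 3 calls held in all 20 alternative fits. CD200-high minus arterial was -0.81 ± 0.18 (adjusted p = 0.0132), lost without arterial replicate 1 (adjusted p = 0.0507) or 2 (adjusted p = 0.054).

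Psme1 and Psme2 encode PA28 alpha and beta, the activator that interferon gamma induces along with the immunoproteasome. Psme1 measured 6.98, 7.53 and 7.53 log2 CPM in CD200-high and 7.93, 7.91 and 8.41 in type H, with means of 7.60 ± 0.25 in arterial libraries and 7.87 ± 0.14 in those labelled sinusoidal. The CD200-high libraries lay below all type H libraries (difference -0.74 ± 0.20, adjusted p = 0.0352). That call was lost without CD200-high replicate 1 (adjusted p = 0.111), type H replicate 1 (0.0536), type H replicate 3 (0.129) or sinusoidal replicate 2 (0.0502), and in 3 of the 8 other alternatives. Psme2 averaged 7.12 ± 0.46, 7.25 ± 0.11, 7.08 ± 0.16 and 6.86 ± 0.18 in CD200-high, type H, arterial and the libraries labelled sinusoidal and passed in no comparison. Over the 12 libraries Psme1 and Psme2 had a Pearson r of 0.148, given as a description. Psme2b, a near-identical copy of Psme2 whose reads may be split with it, averaged 5.35 ± 0.70, 5.23 ± 0.10, 5.36 ± 0.34 and 4.93 ± 0.08.

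Psme4, the large activator PA200, spread widely within CD200-high at 5.20, 4.68 and 2.98 log2 CPM, and averaged 3.71 ± 0.17 for type H, 3.50 ± 0.68 for arterial and 3.96 ± 0.12 for the libraries labelled sinusoidal. Its highest and its next to lowest library were both CD200-high. Psmf1, an inhibitor of the core, averaged 5.63 ± 0.48, 5.89 ± 0.84, 5.98 ± 0.25 and 5.88 ± 0.17. Neither passed in any comparison.

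Psmg2 encodes a chaperone that, with its partner Psmg1, starts assembly of the alpha ring. It measured 3.37, 3.70 and 3.27 log2 CPM in CD200-high and 5.001, 4.77 and 4.40 in type H. Arterial libraries measured 4.68, 5.25 and 4.40 and those labelled sinusoidal 5.18, 5.26 and 4.96. All 3 CD200-high libraries lay below the other 9. The difference of CD200-high was -1.28 ± 0.33 from type H (adjusted p = 0.026), -1.33 ± 0.33 from arterial (adjusted p = 0.0227) and -1.69 ± 0.33 from the libraries labelled sinusoidal (adjusted p = 0.00284). Psmg2 was the 1 member lower in CD200-high than in each of the other 3 populations, as 1.11% of all genes were. The call against type H was lost without CD200-high replicate 1 or 3 or type H replicate 1 or 2, with adjusted p up to 0.0915, with voom weights (0.11) and in a fit of only those populations (0.148). The call against arterial was lost without arterial replicate 1 (0.0567) or 2 (0.0878), with voom weights (0.0901) and in a fit of only those populations (0.105). The position of Psmg2 below all 3 populations thus rests on calls that some alternatives lose. Its partner Psmg1 averaged 4.72 ± 0.16, 4.36 ± 0.21, 4.43 ± 0.48 and 4.77 ± 0.36 in the 4 populations and passed in no comparison, as did Psmg3 and Psmg4. Pomp, the maturation factor of the core and no member by symbol, averaged 6.95 ± 0.28, 7.50 ± 0.10, 7.07 ± 0.29 and 7.33 ± 0.10 and was not called either.

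**Figure D4:**
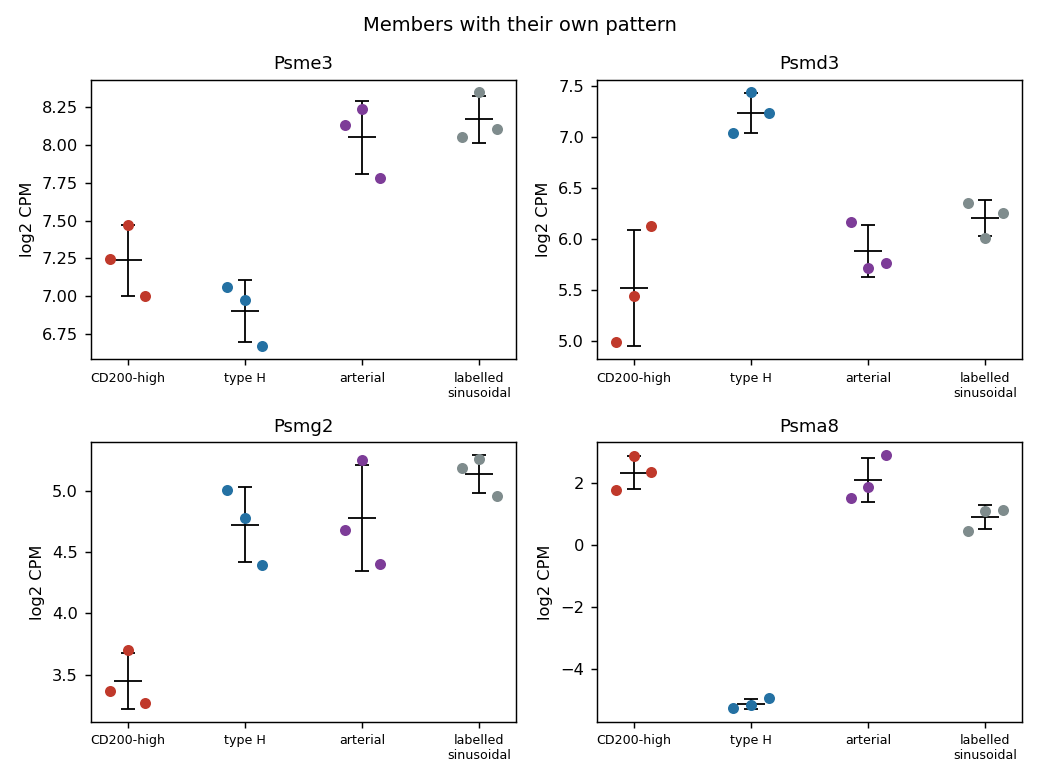
Level of Psme3, Psmd3, Psmg2 and Psma8 in log2 CPM (vertical axes, 1 scale per gene) by population; dots are single libraries, the line is the mean and the bar 1 SD (n = 3). Psme3 splits the populations into a lower and a higher pair, Psmd3 is highest in type H at 7.24, Psmg2 is lowest in CD200-high at 3.45, and the type H dots of Psma8 stand for 0 reads with 0.5 read added.

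The 3 inducible genes did not move as a unit over the 12 libraries. As a description, Pearson r was 0.736 between Psmb8 and Psmb9, 0.681 between Psmb8 and Psmb10 and 0.18 between Psmb9 and Psmb10. Psmb8 and Psmb9 lie within 19.5 kb of each other on chromosome 17, in the MHC, and Psmb10 lies on chromosome 8. The genes most like the mean of the 3, by Pearson r over the 12 libraries among 17083 genes, were Utp3 (0.97), Abracl (0.968), Fbxo5 (0.966), Gm26848 (0.962), Gm20496 (0.959), Cbx2 (0.958), Smim3 (0.954), Smim24 (0.95), Tmsb15b1 (0.948) and Tmsb15l (0.948). Gm20496 shares 186 bases of exon with Psmb8 on the opposite strand. The member most like that mean was Psma2, at 0.859.

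Of the 14 transcriptional regulators listed for the proteasome genes, Nfe2l1 passed in 5 of the 6 comparisons. It encodes the factor that raises proteasome gene transcription when the proteasome is impaired. It measured 8.39, 8.39 and 7.92 log2 CPM in CD200-high and 8.997, 8.69 and 9.01 in type H. It measured 7.12, 6.99 and 7.05 in arterial libraries and 6.59, 6.78 and 6.47 in those labelled sinusoidal. The populations did not overlap, with type H highest and the libraries labelled sinusoidal lowest. The part of Nfe2l1 in the levels of the proteasome genes was not tested. The difference was 2.28 ± 0.17 between type H and the libraries labelled sinusoidal (adjusted p = 1.75e-06), 1.85 between type H and arterial (adjusted p = 3.77e-05), 1.62 ± 0.17 between CD200-high and the libraries labelled sinusoidal (adjusted p = 3.14e-05) and 1.18 ± 0.17 between CD200-high and arterial (adjusted p = 0.00115). Ddi2, the protease that cleaves and activates the Nfe2l1 protein, was higher in type H than in arterial (1.13 ± 0.27, adjusted p = 0.0119) and the libraries labelled sinusoidal (1.28 ± 0.27, adjusted p = 0.00382). Nfyb, a subunit of the CCAAT-binding factor, was lower in CD200-high than in the libraries labelled sinusoidal (-2.01 ± 0.27, adjusted p = 0.000191) and arterial (-1.46, adjusted p = 0.00468).

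Of the 14 regulators, counted beside the shares of all genes given above for each comparison, 0 were higher and 2 lower in CD200-high than in type H, 1 higher and 1 lower against arterial, and 1 higher and 2 lower against the libraries labelled sinusoidal. In type H, 3 were higher and 1 lower than in arterial, and again 3 and 1 against the libraries labelled sinusoidal. Of these, the calls of Nfyb and those of Nfe2l1 other than in CD200-high against type H held in all 20 alternatives, as did that of Nfe2l2 between type H and the libraries labelled sinusoidal. Those of Nfe2l2 between CD200-high and type H and of Maff, Mafk, Mafg and Vcp were lost in at least 1. Of 18 proteasome-associated factors, 2 (11.1%) passed for CD200-high against the libraries labelled sinusoidal, beside 28.7% of all genes. For type H against the same libraries the count was also 2, beside 28.6%. At most 1 passed in any other comparison, beside 10.2% to 20.7% of all genes. Among 11 genes of ubiquitin supply and activation, Ube2l6, an interferon-induced conjugating enzyme for ISG15, averaged 6.27 ± 0.09 log2 CPM in CD200-high and 6.39 ± 0.27 in type H, against 7.39 ± 0.15 in arterial libraries and 7.60 ± 0.16 in those labelled sinusoidal. CD200-high minus sinusoidal was -1.33 (adjusted p = 0.000206) and type H minus arterial -0.997 (adjusted p = 0.00226).

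The peptide loading genes did not share 1 order. Of 14 genes of MHC class I and peptide loading, 2 were higher and 3 lower in CD200-high than in the libraries labelled sinusoidal, and 6 higher and 1 lower in type H than in those libraries. Of all genes, 14.1% and 14.6% passed in these directions for CD200-high and 13.9% and 14.6% for type H. In all 20 alternatives, 0 of the 2 and 1 of the 3 CD200-high calls held (H2-Q7), and 2 of the 6 and 0 of the 1 type H calls (Tapbp and B2m). Tap1, the transporter gene next to Psmb9, averaged 5.31 ± 0.33 log2 CPM in CD200-high, with type H at 5.49 ± 0.39, arterial at 5.83 ± 0.27 and the libraries labelled sinusoidal at 6.27 ± 0.13. CD200-high minus sinusoidal was -0.96 ± 0.27 (adjusted p = 0.0196), lost without CD200-high replicate 1 (0.0621) or sinusoidal replicate 2 (0.0622) or 3 (0.0646). Tapbp, which tethers empty class I molecules to the transporter, was higher in type H than in those libraries (1.17 ± 0.18, adjusted p = 0.000432). H2-Q7, a class I gene with close copies among which reads may be split, was lower in CD200-high than in the libraries labelled sinusoidal (-1.66 ± 0.21, adjusted p = 0.000121).

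Among the 18 genes of interferon signalling, which induces the immunoproteasome, most that passed against the libraries labelled sinusoidal were lower there. Psmb8 and Psmb9 had their highest means in those libraries, and the part of interferon signalling in their levels was not tested. Of 18, 6 were higher and 1 lower in CD200-high than in the libraries labelled sinusoidal, and 6 were higher and 0 lower in type H than in those libraries, beside the same shares of all genes (14.1% and 14.6%, and 13.9% and 14.6%). In all 20 alternatives, 2 of the 6 higher CD200-high calls held (Ifngr1 and Ifit3), as did the lower one (Irf8) and 4 of the 6 type H calls (Ifngr1, Jak1, Irf1 and Ifnar2). Total-read scaling ended 3 of the 6 CD200-high calls, Ifnar1, Irf1 and Isg15. Ifngr1, a chain of the interferon gamma receptor, averaged 8.57 ± 0.11 log2 CPM in CD200-high, with type H at 9.16 ± 0.18, arterial at 8.37 ± 0.26 and the libraries labelled sinusoidal at 6.97 ± 0.52 (type H minus sinusoidal 2.19, adjusted p = 3.03e-05). Irf1, a factor that activates Psmb9 transcription, averaged 7.84 ± 0.46, 8.41 ± 0.21, 7.28 ± 0.07 and 6.92 ± 0.05 (type H minus sinusoidal 1.49, adjusted p = 0.000215). Jak1, a kinase of the receptor, stood at 9.59 ± 0.24 in type H, with CD200-high at 7.33 ± 0.02, arterial at 7.43 ± 0.12 and the libraries labelled sinusoidal at 7.39 ± 0.23 (CD200-high minus type H -2.25, adjusted p = 5.8e-06). Irf8, a factor of B and myeloid cells, stood at 4.88 ± 0.45 in CD200-high, with type H at 7.87 ± 0.28, arterial at 7.08 ± 0.40 and the libraries labelled sinusoidal at 7.57 ± 0.12 (CD200-high minus type H -2.99, adjusted p = 2.65e-05).

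**Figure D5:**
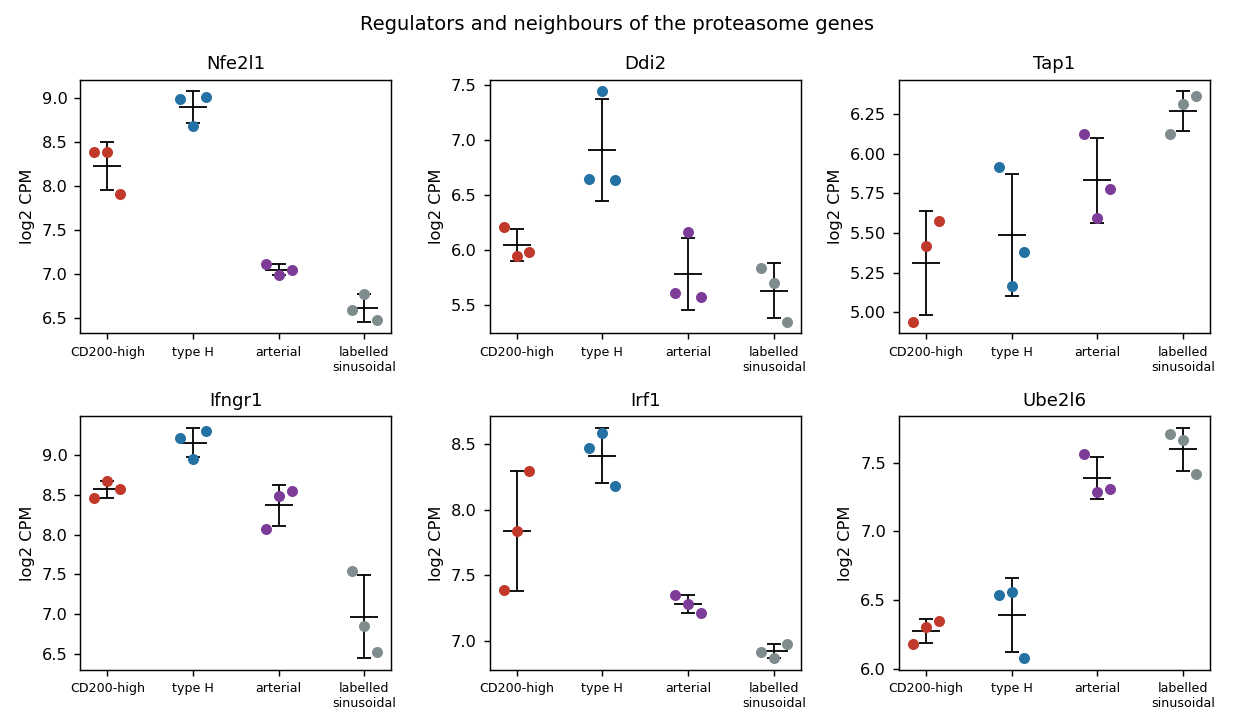
Level of Nfe2l1, Ddi2, Tap1, Ifngr1, Irf1 and Ube2l6 in log2 CPM (vertical axes, 1 scale per gene) by population; dots are single libraries, the line is the mean and the bar 1 SD (n = 3). Nfe2l1, Ifngr1 and Irf1 have their lowest means, 6.62, 6.97 and 6.92, in the libraries labelled sinusoidal, where Tap1 and Ube2l6 have their highest, 6.27 and 7.60.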

How the data were processed

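The authors deposited 1 table of log2 values per gene and library, in mouse symbols: log2 CPM with 0.5 read added. Undoing the log gave whole reads within 0.01 for 100% of values. Per the submitters' processing notes, STAR, featureCounts, Trimmomatic, SAMtools, deepTools and R 4.3 were used, with settings not given in the sources used here. Those notes list a human build for mouse samples, so no gene position is taken from the table; the annotation and strand counted are not given in the sources used here. Overlapping and near-identical genes are therefore uncertain.

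Reads ran from 7.33 to 21.63 M (1e6) per library of 150 bp, which limits the precision of genes with few reads. A gene was kept if 3 or more libraries reached 0.63 CPM, which is 10 reads in a library of the mean effective size (15.9 M). This kept 17086 genes and removed 276. Each pair of populations was compared with limma 3.58.1 in R 4.3.3 (mean-variance trend, all 12 libraries in 1 fit, no block), and calls needed an adjusted p (Benjamini-Hochberg, over all genes kept) below 0.05. In that fit each gene has 1 spread shared by the 4 populations. Its SE can be too small where a population spreads widely, as CD200-high does for Psmb8 and Psmb10, and too large elsewhere. The log2 values were tested as deposited, with no further pseudocount. Fold changes on this scale understate those of low genes. The script was tested on simulated data.

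Named genes were the catalytic subunits, Psme1 to Psme4 and Pomp, called members, members near 0, up to 4 genes of smallest adjusted p per listed pathway and comparison, and the 10 genes most like the inducible subunits. The members and lists were chosen with earlier results of these data known. Catalytic pair ratios used an exact permutation test over 369600 assignments, whose smallest p is 6.49e-05. Exon lengths and overlaps came from GENCODE M21, where 98.8% of symbols matched. The labels number the mice alike in each population; deviations of same-numbered libraries from their population means correlated at -0.04 to 0.10 (median 0.02, 18 pairs, 10434 genes), and 1 of 18 exceeded 0.1. The alternatives were voom weights on recovered reads, no filter, log2(CPM + 1), 3 other scalings, only the populations compared, a replicate block, and leaving out each library.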

Additional observations from a re-analysis of the deposited data

How the results depend on the processing

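Of 42 calls of a proteasome gene in a comparison, 21 held in all 20 alternatives: 9 of 16 for CD200-high against the libraries labelled sinusoidal, 7 of 10 for type H against these, 3 of 3 for type H against arterial, 2 of 7 for CD200-high against type H, and 0 of 5 and 0 of 1 for CD200-high against arterial and arterial against sinusoidal. Members lower in CD200-high than in the libraries labelled sinusoidal numbered 16, but 32 with scaling by total reads, 9 with median-of-ratios scaling and 9 to 18 when 1 library was left out. Total-read scaling moved the median of all genes in that comparison from -0.223 to -0.533. Such scaling moves every gene alike, so the gap between the member median and that median, -0.289, could not change with it. The gap was -0.412 with quantile normalization and ran from -0.355 to -0.219 when 1 library was left out. Members lower in type H than in those libraries numbered 9, but 16 with voom weights, 20 with total reads, 17 with quantile normalization and 8 to 12 without 1 library; those higher numbered 1, or 0 to 1. Members lower in CD200-high than in type H numbered 5, but 3 with median-of-ratios or quantile scaling, 1 with only these populations and 1 to 5 without 1 library; those higher numbered 2, but 1 with total reads or with only these populations and 1 to 2 without 1 library. Members lower in CD200-high than in arterial numbered 5, but 2 with voom, 9 with total reads, 3 with median-of-ratios, 1 with only these populations, 3 with the replicate block and 0 to 6 without 1 library. Members lower in type H than in arterial numbered 2, or 4 with quantile normalization and 2 to 3 without 1 library. Members lower in arterial than in the libraries labelled sinusoidal numbered 1, or 4 with voom, 7 with total reads, 2 with only these populations and 0 to 2 without 1 library. The cause of these changes was not tested, beyond the fewer libraries fitted. Shares of all genes were not counted in the alternatives, so changes particular to the members cannot be told from changes of all genes.

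The replicate block changed 5 member calls (Psmb8 and Psmd14 against arterial, Psmc1 and Psmd6 against sinusoidal, all in CD200-high and lost, and Psmb9 in type H against arterial, gained) and no other. The sinusoidal minus CD200-high difference of the Psmb10 to Psmb7 log2 ratio, 0.38, became -0.37 without CD200-high replicate 1 and 1.07 without replicate 3 (the limits over libraries). For Psmb8 to Psmb5 it stayed at 1.09 to 1.63 and for Psmb9 to Psmb6 at 0.83 to 1.25. Psmb9 in CD200-high minus type H, 0.05, became -0.0878 with total reads and ranged from -0.13 (type H replicate 3 left out) to 0.242, with -0.10 when CD200-high replicate 2 was left out. Ubb in CD200-high minus sinusoidal, 0.39, became -1.02 with quantile normalization. The median of the members in type H minus arterial, 0.00212, became -0.0514 with total reads.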

Other observations

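The CD200-high library of replicate 1 was the lowest of the 3 CD200-high libraries for 26 of the 49 proteasome genes (53.1%), 10 of 18 interferon signalling genes (55.6%), 9 of 14 genes of MHC class I and peptide loading (64.3%) and 10 of 10 pan-endothelial markers, beside 31.6% of all genes tested. Replicate 2 was the lowest for 4 of the 49 proteasome genes (8.16%), beside 39.2% of all genes. Nlrc5, the class I transactivator, measured -2.11, 3.53 and 3.32 log2 CPM in replicates 1, 2 and 3 of CD200-high. It averaged 4.28 ± 0.83 in type H, 3.45 ± 1.76 in arterial libraries and 4.78 ± 0.41 in those labelled sinusoidal. Nlrc5 passed in no comparison and was singled out after its values were seen.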
